A study of Mus musculus with 6 samples.

Results

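*Flvcr1* and 8 further genes of iron and heme handling were examined in MC3T3-E1 cells, a preosteoblast line derived from mouse skull bone. The members were given by name. *Flvcr1* was chosen by its measured FPKM, which was higher with cyanidin-3-O-glucoside (C3G) in these same libraries, so its change is given here as a description without a test. The other members, *Tfrc*, *Fth1*, *Ftl1*, *Slc11a2*, *Slc40a1*, *Alas1*, *Fech* and *Ireb2*, were listed for their function, although with earlier results of these data known. Of the 9 members, 8 had values among the 11234 genes of the series, and *Slc40a1*, which encodes the iron exporter ferroportin, was not analysed here. C3G is an anthocyanin, one of the pigments that color berries. After serum-free synchronization for 24 h, 3 cultures at passage 4 were kept for 24 h more in complete medium that held C3G at 100 μmol/L, and 3 control cultures in the same medium lacking it. The study describes the controls both as vehicle-treated and as kept in medium without C3G, so whether the differences include an effect of a vehicle cannot be told. All cultures were of 1 cell line, labelled as C57BL/6, and nothing states how independent they were, so p values measure the spread between these libraries only. In such bulk RNA, a smaller number of cells expressing a gene and less of its RNA per cell cannot be told apart.

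Cells take up iron bound to transferrin through the transferrin receptor, carry it out of endosomes through a divalent metal transporter, and store what is not used inside ferritin shells. Part of the iron enters mitochondria, where it is built into iron-sulfur clusters or inserted into a porphyrin ring to make heme. Iron regulatory proteins sense cytosolic iron. When iron is low they bind hairpins in messenger RNAs called iron responsive elements, which slows the translation of ferritin and stabilizes the transferrin receptor message. FLVCR1 is a membrane transporter that was identified as a feline leukemia virus receptor; it is known to export heme and to move choline across membranes.

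The iron responsive elements of the members are shown because they are the sequence feature that links the receptor, both ferritin chains and the exporter to *Ireb2*. Each is written as DNA in the direction of the transcript, from the GENCODE M21 transcripts on GRCm38, with the loop of 6 bases in capitals.
*Fth1*, 5′ UTR, chr19:9982733-9982759, plus strand: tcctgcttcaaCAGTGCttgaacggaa
*Ftl1*, 5′ UTR, chr7:45459780-45459806, minus strand: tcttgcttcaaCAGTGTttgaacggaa
*Slc40a1*, 5′ UTR, chr1:45925466-45925492, minus strand: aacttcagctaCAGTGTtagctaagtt
*Tfrc*, 3′ UTR, chr16:32631220-32631246, plus strand: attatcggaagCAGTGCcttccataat
*Tfrc*, 3′ UTR, chr16:32631599-32631625, plus strand: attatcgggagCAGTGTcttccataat
*Tfrc*, 3′ UTR, chr16:32631664-32631690, plus strand: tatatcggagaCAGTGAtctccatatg
*Tfrc*, 3′ UTR, chr16:32631711-32631737, plus strand: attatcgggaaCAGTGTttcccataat

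The search asked for an unpaired C, 5 bases, CAGTG and any base but G, and 5 bases that pair with the first 5, G with T included, flanked by 5 further bases on either side of which at least 4 pair. Such a stretch was found in transcripts of 35 of the 55450 annotated genes (0.0631%), and in a UTR of 13 of these. Of the 70 genes on 7 lists of iron and heme handling, 5 held one, the fifth being *Alas2*. The remaining members had no stretch of this form, which says nothing about looser forms of the element.

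The promoter of *Flvcr1* is shown because the report turns on this gene. It is the RefSeq window of GRCm38.p6 upstream of the start site, chr1:191026191-191026440, minus strand. Capitals mark the only match to TGACNNNGC, the core of the antioxidant response element, which begins 151 bases before the start site.
*Flvcr1* promoter: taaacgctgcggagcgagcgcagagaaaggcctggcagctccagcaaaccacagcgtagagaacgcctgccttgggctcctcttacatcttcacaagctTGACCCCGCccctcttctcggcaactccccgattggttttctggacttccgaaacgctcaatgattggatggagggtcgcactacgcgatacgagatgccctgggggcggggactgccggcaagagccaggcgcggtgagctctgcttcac

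On both strands, this core occurred in 12.4% of all 32851 RefSeq windows, which also take in a short stretch past the start site. It was present in 1 of the 9 windows of the members, which cover 6 genes. *Slc11a2*, *Slc40a1* and *Fech* had no window.

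Before the results, 1 library has to be set apart. In control replicate 1 the departure from control replicates 2 and 3 rose with the GC content of the transcript, with a Spearman's rho of 0.748 across 11211 genes, which are not independent replicates. C3G replicate 1 departed from its group in the same direction (rho 0.631). The same relation was present among the 59 iron and heme genes with values, with a rho of 0.653 in control replicate 1 and 0.672 in C3G replicate 1. Differences of the members and list genes in which this library stood out are therefore given without it as well. C3G replicate 1, which departed in the same direction, stays in those differences, so they are not free of this relation. The labelled cell type was checked against its markers. Values were held for 9 of 10 osteoblast lineage markers, from *Sp7* (mean of the 6 libraries 0.542 FPKM), a bone transcription factor, to *Col1a1* (1707 FPKM), the main collagen of bone. *Ibsp* was not analysed here.

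**Figure D1:**
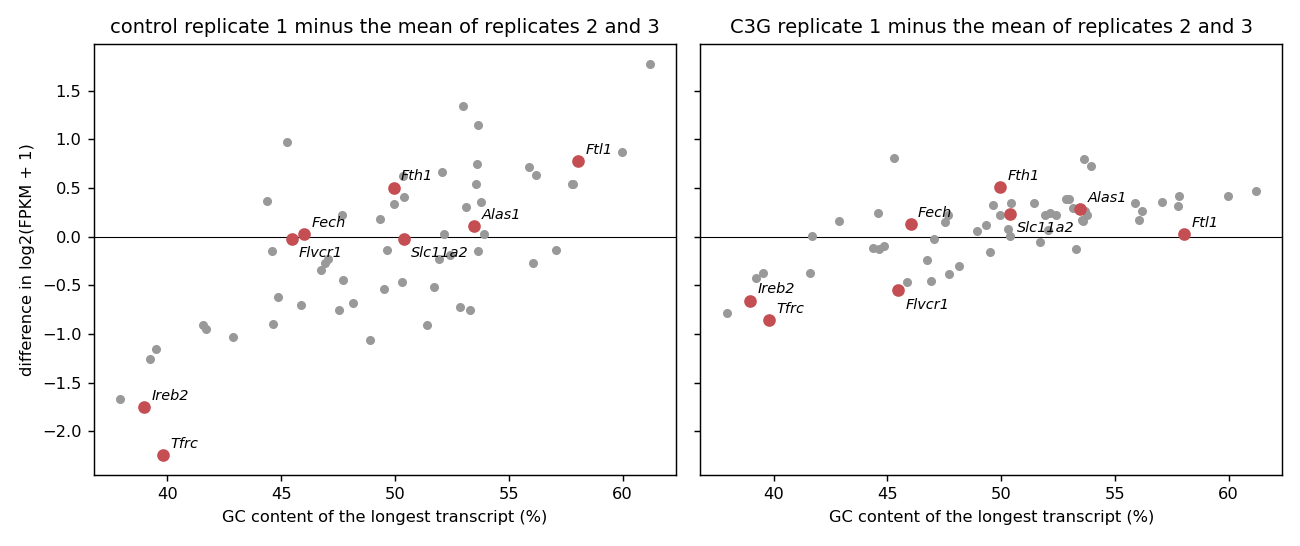
Departure of replicate 1 from the mean of replicates 2 and 3 of its own group, in log2(FPKM + 1), against the GC content of the longest annotated transcript in percent, for 59 iron and heme genes (gray, members in red). In control replicate 1, *Tfrc* and *Ireb2*, at the lower end of GC content, sit at -2.25 and -1.75, whereas *Ftl1*, at 58.1% GC, sits at 0.78.

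The FPKM of *Flvcr1* (ENSMUSG00000066595.9, chromosome 1 of GRCm38, 191005847 to 191026158, minus strand) was 2.24, 2.48 and 2.11 in control replicates 1, 2 and 3. In C3G replicates 1, 2 and 3 it was 3.16, 5.79 and 4.47. Every treated library lay above every control library, and the treated libraries were spread more widely than the controls. The means were 4.47 ± 1.32 FPKM in treated and 2.28 ± 0.192 FPKM in untreated cells (SD, n = 3 each), a ratio of 1.97. On the log2(FPKM + 1) scale, which understates changes of low values, the difference was 0.71 with a standard error of 0.210. These are the values for which the gene was listed. Within the replicate numbers, the treated library exceeded its control by 0.36, 0.96 and 0.82 on that scale for numbers 1, 2 and 3.

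*Flvcr1* has a GC content of 45.5%, and as deposited its control replicate 1 differed by only -0.02 on the log2 scale from control replicates 2 and 3. C3G replicate 1 was lower than C3G replicates 2 and 3 by 0.55 on the log2 scale. After correction of each library for GC content the log2 values were 2.17, 1.65 and 1.51 in the controls and 2.12, 2.63 and 2.33 with C3G, in the order of the replicate numbers. Control replicate 1 then lay above C3G replicate 1, so the groups overlapped, and their difference was 0.58. With all values as deposited, over the single libraries left out in turn the difference ran from 0.54 to 0.90. No 75-base stretch of its longest transcript occurred in transcripts of another gene. Its exons overlap those of *A230020J21Rik*, an antisense gene on the opposite strand. The libraries were stranded, but whether the authors counted by strand is not given in the sources used here, so reads of the antisense gene may be included.

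**Figure D2:**
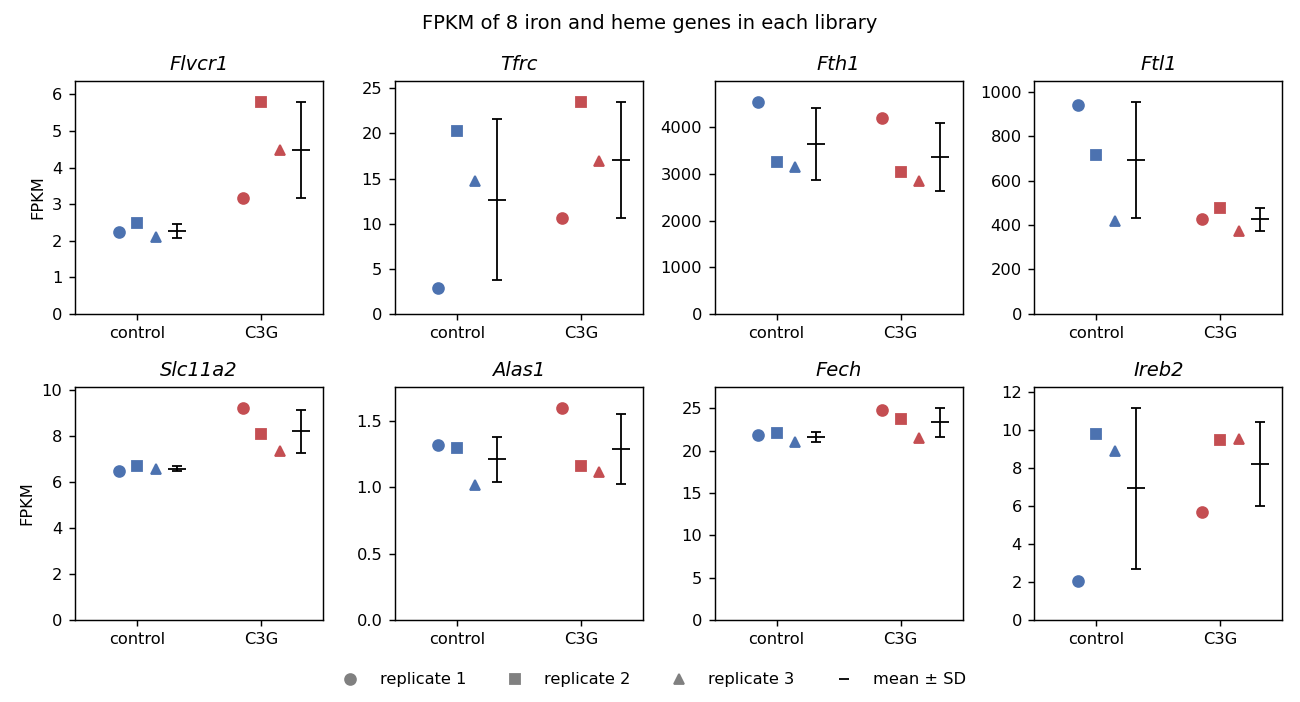
FPKM of the 8 members in each library, from 0, with control libraries in blue, C3G libraries in red, marker shapes for replicate numbers and the group mean ± SD in black (n = 3). The groups are apart in *Flvcr1* and *Slc11a2* and overlap in the other 6 genes; in *Tfrc* and *Ireb2* control replicate 1 lies far under the rest, at 2.87 and 2.07 FPKM.

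Markers of other cells were held beside this result. Of 9 erythroid markers, a lineage that makes heme in bulk, 2 had values, the alpha-globin genes *Hba-a1* and *Hba-a2*. Their summed FPKM was 0 to 1.56 in the control libraries and 1.08 to 3.03 in the C3G libraries. *Hba-a2* alone did not overlap between the groups, at 0, 0.425 and 0.419 FPKM in controls 1 to 3, against 1.27, 0.482 and 0.759 FPKM in treated cultures 1 to 3. Of all genes, 2.55% were higher with C3G without overlap. The values of *Hba-a2* are near the floor. Every gene of the series had a larger group mean of at least 0.5 FPKM. *Hba-a2* reached this only with C3G (mean 0.837 FPKM, against 0.282 FPKM in controls), so its lack of overlap carries no weight. In treated cultures 1 to 3 the sum of both globin genes was 3.03, 1.08 and 1.55 FPKM, where *Flvcr1* had 3.16, 5.79 and 4.47 FPKM. Of 8 macrophage and blood cell markers 3 had values. Their sum was 33.8 to 43.1 FPKM in controls and 48.4 to 57.2 FPKM with C3G, so that the groups did not overlap. Nearly all of it was *Lyz2* (43.7 FPKM on average), which encodes lysozyme, with *Cd14*, a lipopolysaccharide co-receptor, at 2.07 FPKM, while *Ptprc* and *Csf1r*, which define blood cells and macrophages, were not analysed here. The part of *Lyz2* and *Hba-a2* in the *Flvcr1* result was not tested. *Cebpa*, a transcription factor of fat cells, had 1.60 FPKM, and the cartilage genes *Sox9*, *Col2a1* and *Matn1* had 65.5, 52.0 and 1.76 FPKM. In both of these lists the summed levels of the groups overlapped.

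All genes were compared with limma on log2(FPKM + 1), and a call required a two-sided p under 0.05 before adjustment and a fold change of at least 1.2. Of all 11234 genes, 0.650% were called, 45 (0.401%) higher and 28 (0.249%) lower with C3G, a split that became 30 and 30 with quantile normalization and 67 higher of 135 with the GC correction. Of the 7 members other than *Flvcr1*, 0 were called by limma, 0 had an unadjusted p under 0.05 and 0 passed Benjamini-Hochberg adjustment. Over all genes 0 passed that adjustment, and only 0.659% had an unadjusted p under 0.05, so 0 of 7 lies close to the share of all genes. This fit takes no account of the replicate numbers. With the replicate block 1 of the 7 was called (*Ftl1*), where calls over all genes went from 73 to 169, and with block and GC correction 2 were called (*Ftl1* and *Tfrc*), where calls over all genes went to 246. None passed adjustment in these fits either. Control and treated libraries were fully apart in 1 of the 7, *Slc11a2*, against 4.02% of all genes. The median difference of the 7 was 0.10 on the log2 scale, and that of all genes was 0.06.

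*Slc11a2* (chromosome 15, 100387898 to 100425072) encodes the divalent metal transporter that passes ferrous iron out of endosomes. Its FPKM was 6.50, 6.70 and 6.56 in controls 1 to 3, against 9.22, 8.09 and 7.35 in treated cultures 1 to 3. The control libraries were close together and every treated library was above them. The means were 8.22 ± 0.940 with C3G against 6.59 ± 0.104 FPKM in controls (SD, n = 3 each), a difference of 0.28 ± 0.154 (standard error) on the log2 scale (95% interval -0.09 to 0.64). It did not pass by limma (p = 0.116, adjusted p = 0.992, exact permutation p = 0.1). With 3 libraries against 3, 0.1 is the smallest permutation p. It was called in none of the 15 alternatives, over which the difference ran from 0.19 to 0.35. Its exons overlap those of *Gm5475* on the opposite strand.

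*Tfrc* (chromosome 16, 32608920 to 32632794), the transferrin receptor, had 2.87, 20.3 and 14.8 FPKM in controls 1 to 3, against 10.6, 23.5 and 17.0 FPKM in treated cultures 1 to 3. Replicate 1 was the lowest library of each group. The means were 17.0 ± 6.43 with C3G against 12.7 ± 8.92 FPKM in controls (SD, n = 3 each). The difference was 0.66 ± 0.644 (standard error) on the log2 scale, with a 95% interval of -0.87 to 2.19 (limma p = 0.341, exact permutation p = 0.6). Its transcript has 39.8% GC. Within replicate numbers 1, 2 and 3 the treated library was higher, with differences of 1.59, 0.20 and 0.19. Without control replicate 1, which leaves the low C3G replicate 1 without its partner, the difference was -0.09, with replicates 2 and 3 only it was 0.19, and with the GC correction it was 0.42. Only with the GC correction and the replicate block together was *Tfrc* called (standard error 0.159, adjusted p = 0.785 by limma).

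Among the other genes of iron uptake and reduction, *Scara5*, a receptor for ferritin, was the most abundant, at 155 ± 45.2 FPKM (SD, n = 3) in untreated and 138 ± 8.24 FPKM (SD, n = 3) in treated cells (limma p = 0.590, exact permutation p = 0.9). Control replicate 1 was its highest library, at 206 FPKM, and the log2 difference of -0.13 became 0.09 without it. Of the 9 genes of this list with values, 0 were called by limma and 0 had an unadjusted p under 0.05. The median of the list was 0.07 on the log2 scale, and only *Slc11a2* had no overlap.

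Ferritin consists of heavy chains, which oxidize iron, and light chains, which help the core to form. *Fth1* (chromosome 19, 9980598 to 9985098), the heavy chain gene, was the second most abundant of all 11234 genes. It had 4541, 3259.9 and 3146.5 FPKM in controls 1 to 3, against 4201.9, 3052.1 and 2846 FPKM in treated cultures 1 to 3. In both groups replicate 1 was the highest library. The means were 3367 ± 731 with C3G against 3649 ± 775 FPKM in controls (SD, n = 3 each), and the difference of -0.12 on the log2 scale did not pass the test (standard error 0.286, 95% interval -0.80 to 0.56, limma p = 0.694, exact permutation p = 0.5). Within replicate numbers 1, 2 and 3 the treated library was lower, with differences of -0.11, -0.09 and -0.14. With the replicate block the standard error was 0.176 and *Fth1* was not called (adjusted p = 0.830 by limma). Without control replicate 1, which leaves C3G replicate 1 without its partner, the difference was 0.05.

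*Ftl1* (chromosome 7, 45457944 to 45459884), the light chain gene, had 941, 716 and 419 FPKM in controls 1 to 3, against 428, 475 and 373 FPKM in treated cultures 1 to 3. The treated libraries lay close to the lowest control library, and the groups overlapped. The means were 425 ± 51.2 with C3G against 692 ± 262 FPKM in controls (SD, n = 3 each), a ratio of 0.614. The log2 difference of -0.63 ± 0.320 (standard error), with a 95% interval of -1.39 to 0.13, did not pass by limma (p = 0.0902, adjusted p = 0.992, exact permutation p = 0.3).

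In each of the 3 replicate numbers the treated library was lower in *Ftl1*, with differences of -1.13, -0.59 and -0.17 on the log2 scale. With the replicate block *Ftl1* was called (standard error 0.227, adjusted p = 0.794 by limma). It was likewise called with block and GC correction (difference -0.53, adjusted p = 0.785) and without control replicate 3 (difference -0.96, adjusted p = 0.877). Without control replicate 1 the difference was -0.37 and not called. Of the 75-base stretches of its longest transcript, 69.9% also occur in 6 other genes, among them the pseudogenes *Ftl1-ps1* and *Ftl2-ps*, so its level depends on how the authors assigned shared reads. *Ftl1-ps1* was listed at 291, 56.6 and 61.6 FPKM in controls 1 to 3, against 74.6, 50.6 and 56.9 FPKM in treated cultures 1 to 3. Of the 5 storage and chaperone genes with values, 0 were called by limma and 0 had an unadjusted p under 0.05, with a median of -0.08 on the log2 scale.

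Iron sensing was represented by *Ireb2*, *Aco1* and *Fbxl5*. *Ireb2* (chromosome 9, 54863789 to 54912530) encodes iron regulatory protein 2, which is degraded when iron is plentiful. Its FPKM was 2.07, 9.79 and 8.93 in controls 1 to 3, against 5.68, 9.51 and 9.53 in treated cultures 1 to 3. As in *Tfrc*, replicate 1 was low in both groups, and its transcript has 39.0% GC. The difference of 0.39 (log2, standard error 0.499) had an exact permutation p of 0.7 and a limma p of 0.462. Within replicate numbers 1, 2 and 3 the differences were 1.12, -0.04 and 0.08. The difference became -0.20 without control replicate 1, which likewise leaves C3G replicate 1 unpaired, 0.02 with replicates 2 and 3 only and 0.13 with the GC correction. *Aco1*, which encodes iron regulatory protein 1, had 23.2 ± 0.346 FPKM (SD, n = 3) in untreated and 25.2 ± 2.66 FPKM (SD, n = 3) in treated cells (limma p = 0.492, exact permutation p = 0.2). At 52.1% GC, its control replicate 1 was 23.6 FPKM, close to the other controls. None of the 3 sensing genes was called by limma or had an unadjusted p under 0.05.

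For iron export only *Cp* had values among 4 genes. It encodes ceruloplasmin, a ferroxidase that works with ferroportin, and had 6.91 ± 0.623 with C3G against 5.64 ± 2.21 FPKM in controls (SD, n = 3 each, limma p = 0.308, exact permutation p = 0.6). Its control replicate 1 was the lowest library, at 3.09 FPKM, and the log2 difference of 0.31 became -0.00 without it.

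*Alas1* (chromosome 9, 106233455 to 106248654) encodes the enzyme of the initial and rate-limiting step of heme synthesis in most cells. Its FPKM was 1.32, 1.30 and 1.02 in controls 1 to 3, against 1.60, 1.16 and 1.11 in treated cultures 1 to 3, with broad overlap. The difference was 0.05 ± 0.145 (standard error) on the log2 scale (95% interval -0.30 to 0.39, limma p = 0.751, exact permutation p = 0.8). The sign of this small difference reversed under 5 of 15 alternatives, to -0.04 with quantile normalization and -0.02 with median centring among them.

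*Fech* encodes ferrochelatase, which inserts iron into protoporphyrin as the last step. It had 21.9, 22.1 and 20.97 FPKM in controls 1 to 3, against 24.8, 23.7 and 21.5 FPKM in treated cultures 1 to 3. As deposited the libraries were even, control replicate 1 included. After the GC correction the log2 values were 4.95, 4.40 and 4.34 in controls 1 to 3, against 4.74, 4.51 and 4.38 in treated cultures 1 to 3. The difference of 0.10 ± 0.141 (standard error) on the log2 scale (95% interval -0.23 to 0.44) did not pass by limma (p = 0.495, exact permutation p = 0.3) and became -0.02 with the GC correction. Of the 13 genes of heme synthesis with values, 0 were called by limma and 0 had an unadjusted p under 0.05, with differences from -0.21 to 0.14 and a median of 0.03 on the log2 scale. *Tmem14c*, a mitochondrial porphyrin carrier, was the most abundant of them, at 46.6 ± 4.79 FPKM (SD, n = 3) in treated and 42.3 ± 3.12 FPKM (SD, n = 3) in untreated cells (limma p = 0.415, exact permutation p = 0.4).

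**Figure D3:**
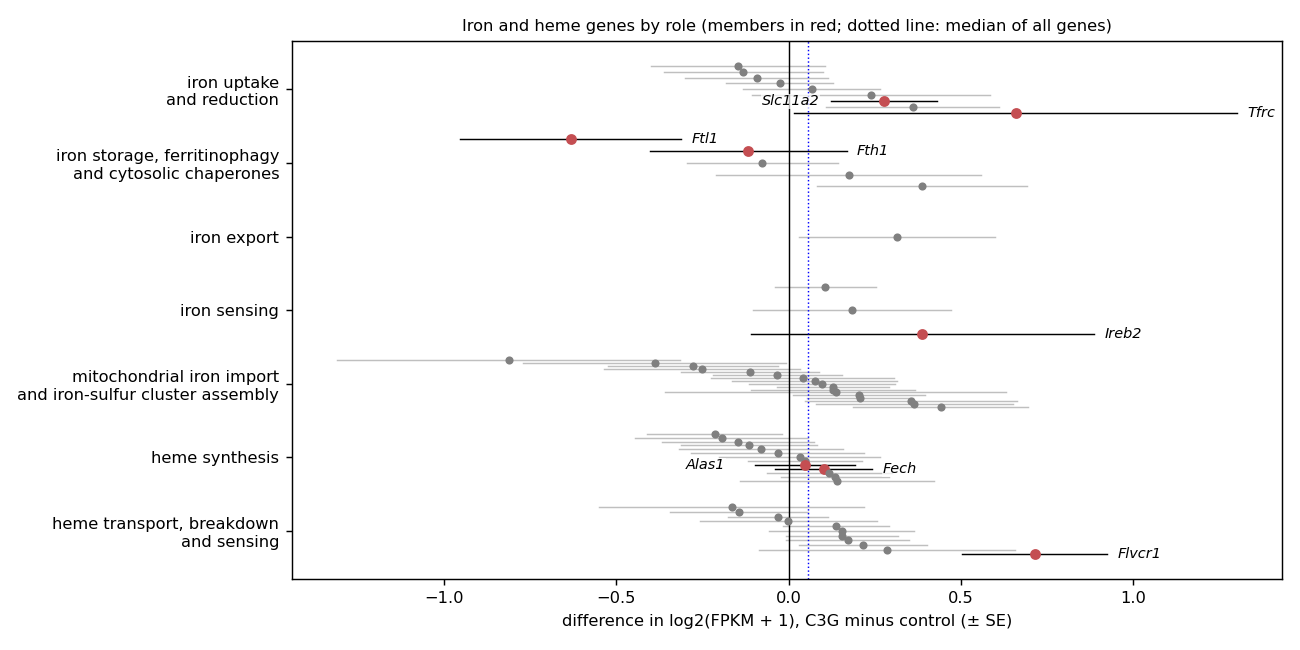
Difference in log2(FPKM + 1), C3G minus control, with its limma standard error, for 59 iron and heme genes on 7 lists by role; members are red and named, and the dotted line is the median of all genes, at 0.06. *Flvcr1* stands at 0.71 at the right of its list, and the lists spread on both sides of 0.

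Of the 58 genes on the lists other than *Flvcr1*, 0 were called by limma, 0 had an unadjusted p under 0.05 and 0 passed adjustment. Of all genes, 0.650% were called and 0.659% had such a p. The median difference was 0.09 on the log2 scale, with 35 genes above 0 and 23 below, where all genes had a median of 0.06. Control and treated libraries were fully apart in 2 of the 58, *Slc11a2* and *Isca2*, both higher with C3G, against 2.55% of all genes that were higher without overlap. *Isca2*, an assembly factor of mitochondrial iron-sulfur proteins, had 4.14, 5.19 and 4.90 FPKM in controls 1 to 3, against 5.53, 5.80 and 5.51 FPKM in treated cultures 1 to 3. The treated libraries were nearly level, and the difference of 0.21 on the log2 scale did not pass by limma (standard error 0.153, p = 0.221, exact permutation p = 0.1). It was 0.13 without control replicate 1.

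Among the 17 genes of mitochondrial iron import and cluster assembly, *Hspa9*, the mitochondrial chaperone mortalin, and *Slc25a28*, an iron importer of the inner membrane, were the most abundant. *Hspa9* had 77.2 ± 16.1 with C3G against 76.0 ± 20.8 FPKM in controls (SD, n = 3 each), and *Slc25a28* had 20.7 ± 1.70 against 22.8 ± 5.50 FPKM. Without control replicate 1, which leaves C3G replicate 1 in place, their log2 differences went from 0.04 to -0.19 and from -0.11 to 0.07. Within replicate numbers 2 and 3 they were -0.0073 and -0.068 for *Hspa9*, and 0.024 and 4.6e-05 for *Slc25a28*. *Fdx1l*, which encodes a ferredoxin and was named after its values were seen, had 14.8, 3.67 and 3.56 FPKM in controls 1 to 3, against 3.94, 3.06 and 2.11 FPKM in treated cultures 1 to 3. Its transcript, with 61.2% GC, was the richest in GC of the 59 genes, and control replicate 1 was far above the rest. The difference of -0.81 on the log2 scale was not called (limma p = 0.148, exact permutation p = 0.3). Without control replicate 1 it was -0.22 (standard error 0.201) and not called, and with the replicate block over all 6 libraries it was called (adjusted p = 0.794 by limma). Its exons overlap those of *Gm38431* and *Gm49373* on the same strand.

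Beside *Flvcr1*, 10 genes of heme transport, breakdown and sensing had values, and 0 of them were called by limma or had an unadjusted p under 0.05. *Pgrmc1*, a heme-binding membrane protein, had 67.1 ± 2.86 with C3G against 61.4 ± 14.2 FPKM in controls (SD, n = 3 each). *Slc48a1*, which moves heme out of lysosomes, had 52.6 ± 7.11 with C3G against 46.5 ± 5.73 FPKM in controls (SD, n = 3 each, limma p = 0.369, exact permutation p = 0.3). *Hmox1*, the inducible heme oxygenase that breaks heme down, was named after its values were seen. It had 32.9, 59.1 and 53.6 FPKM in controls 1 to 3, against 44.3, 56.4 and 41.8 FPKM in treated cultures 1 to 3, with means of 48.5 FPKM in controls and 47.5 FPKM with C3G. Its log2 difference was -0.25 without control replicate 1, the lowest library. *Abcg2*, a second exporter that can carry heme, was also named afterwards, with 7.74 ± 1.48 FPKM (SD, n = 3) in treated and 6.67 ± 3.26 FPKM (SD, n = 3) in untreated cells (limma p = 0.466, exact permutation p = 0.7). Without control replicate 1, which leaves C3G replicate 1 in place, the log2 differences of *Abcg2* and *Pgrmc1* went from 0.29 to -0.13 and from 0.15 to -0.05. Within replicate numbers 2 and 3 they were -0.015 and 0.030 for *Abcg2*, and -0.049 and 0.0059 for *Pgrmc1*. The related transporter gene *Flvcr2* was not analysed here.

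Since FPKM is divided by gene length, levels of the members can be set in order as deposited. Division by length does not remove the relation with GC content, nor reads that *Ftl1* shares with other genes. Over the 6 libraries the means were 3508 FPKM for *Fth1*, 559 for *Ftl1*, 22.5 for *Fech*, 14.8 for *Tfrc*, 7.59 for *Ireb2*, 7.40 for *Slc11a2*, 3.37 for *Flvcr1* and 1.25 for *Alas1*. Of 5 neighbouring pairs tested, those from *Fth1* to *Ireb2* kept their order in 6 of 6 libraries (exact sign-flip test on log2 values, two-sided, p = 0.0312 each, the smallest possible, adjusted p = 0.0391). This test takes the 6 libraries as independent, although libraries of the same replicate number departed alike from their group means. With the 3 replicate numbers as units the smallest p of such an exact test is 0.25, so the order could not pass. *Fech* and *Tfrc* were nearly level in C3G replicate 2, at 23.7 and 23.5 FPKM, and far apart in control replicate 1, at 21.9 and 2.87 FPKM. *Ireb2* was above *Slc11a2* in 4 of 6 libraries, a difference within their spread (exact p = 0.812). *Flvcr1* lay between *Slc11a2* and *Alas1* in 6 of 6 libraries and ranked 8138th of 11234 genes, so a lowly expressed gene. The place of *Tfrc* against *Ireb2* held in control replicate 1 too, where both were low.

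The genes whose values followed *Flvcr1* most closely over the 6 libraries, among 10463 genes with a mean of at least 1 FPKM, were *Acox3* (Pearson's r 0.984), *Ttll4* (0.949), *Foxp1* (0.943), *Itga11* (0.932) and *Zfp384* (0.914). The points share their libraries and the division into groups for which *Flvcr1* was listed, so these coefficients are a description. *Acox3*, a peroxisomal acyl-CoA oxidase, had 1.30, 1.31 and 1.31 FPKM in controls 1 to 3, against 1.43, 1.58 and 1.52 FPKM in treated cultures 1 to 3. Of these 5 genes only *Zfp384*, which encodes a zinc finger protein, had overlapping groups, where 4.02% of all genes had none. The 5 were picked for following *Flvcr1*, whose groups are apart, so their lack of overlap is largely built into the choice. Among the members, the coefficient with *Flvcr1* ran from -0.49 in *Fth1* and *Ftl1* to 0.58 in *Slc11a2*.

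Within 250000 bases of *Flvcr1* on chromosome 1 lie 5 further genes with values, *Rps6kc1*, *Angel2*, *Vash2*, *Tatdn3* and *Nsl1*. *Vash2*, a tubulin carboxypeptidase gene, had 2.74, 3.40 and 3.47 FPKM in controls 1 to 3, against 3.61, 3.66 and 3.81 FPKM in treated cultures 1 to 3. Its groups did not overlap, and the difference was 0.16 on the log2 scale (limma p = 0.315, exact permutation p = 0.1) and 0.08 without control replicate 1. *Tatdn3*, on the other side, had 2.04 ± 0.234 with C3G against 1.87 ± 0.262 FPKM in controls (SD, n = 3 each, limma p = 0.587, exact permutation p = 0.4). The differences of the 5 genes ran from -0.15 to 0.35 (*Angel2*, -0.07 without control replicate 1) on the log2 scale, and 0 of them were called by limma or had an unadjusted p under 0.05.

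**Figure D4:**
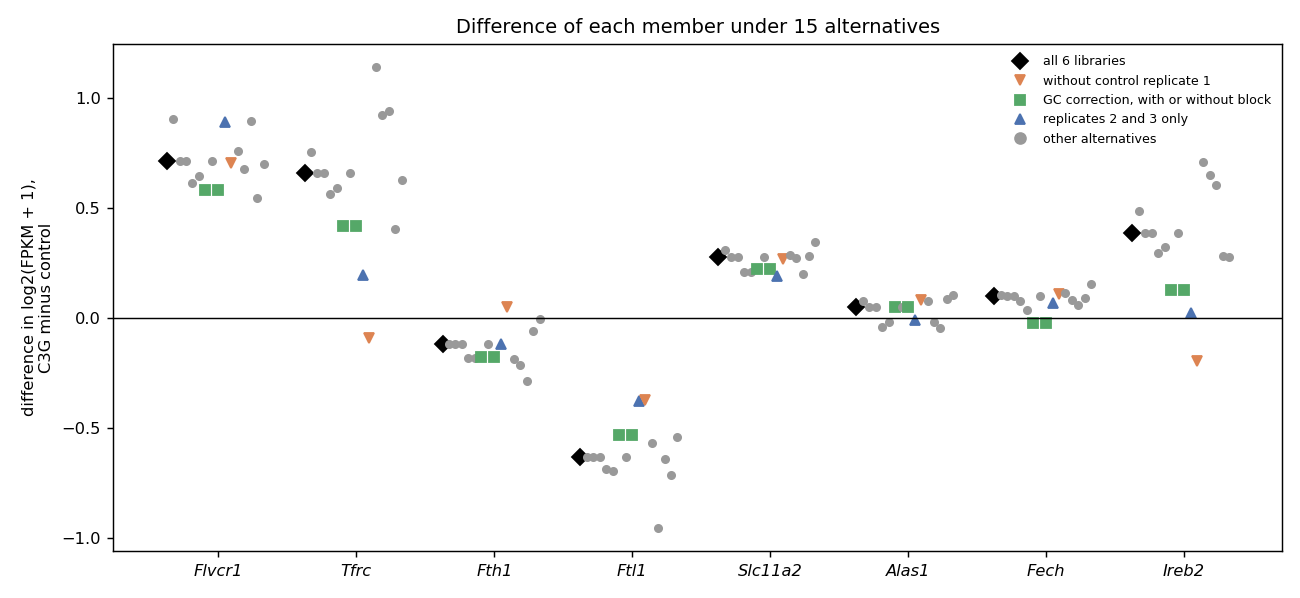
Difference in log2(FPKM + 1), C3G minus control, of each member with all 6 libraries and under 15 alternatives. *Flvcr1*, chosen for its difference, lies between 0.54 and 0.91 and *Slc11a2* between 0.19 and 0.35, whereas *Tfrc* falls from 0.66 to -0.09 and *Ireb2* from 0.39 to -0.20 without control replicate 1.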

How the data were processed

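RNA was extracted with TRIzol and sequenced from libraries made with a stranded KAPA kit. The authors deposited 1 FPKM value per gene and library, calculated with Ballgown (fragments per kilobase, scaled to mapped fragments). The submitters' processing notes name cutadapt, HISAT2 2.1.0, StringTie and STAR 2.5.2b with no role, and the human build hg19, although the identifiers are mouse genes. A gene filter and the annotation are not given in the sources used here. The larger group mean was at least 0.5 FPKM in every gene. Depth is unknown, so no counting error is given. Symbols, positions and GC content were taken from GENCODE M21 on GRCm38; 9828 identifiers carry its version.

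Values were fitted as log2(FPKM + 1) with limma 3.58.1 (eBayes with trend, R 4.3.3), group being the only term. Tests beside limma were computed in Python 3.11.15 with scipy 1.17.1. The exact permutation test used differences of mean log2 values, two-sided. GC correction subtracted a natural spline with 5 degrees of freedom from each library; 23 genes without a GC value stayed uncorrected. Replicate numbers come from the labels, which do not say that they pair the libraries. Departures from the group means correlated at 0.653, 0.580 and 0.440 for numbers 1, 2 and 3, against -0.640 to 0.307 between numbers. Replicate 1 of both groups departed with GC content, and the part of this in the coefficients was not tested. The fit was tested on simulated data. The members, gene lists and alternatives were chosen with earlier results of these data known. Named genes were the members, genes of the lists that were called or had no overlap, the 2 most abundant of each list, and the 5 genes most like *Flvcr1*. The loop of the iron responsive element was searched in whole transcripts instead of promoter windows, a change made after the plan.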

Additional observations from a re-analysis of the deposited data

How the results depend on the processing

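The difference of *Flvcr1* ran from 0.54 to 0.91 over 15 alternatives. Its sign is no sign of stability, since the gene was chosen because it was higher with C3G in these libraries. The count of called members other than *Flvcr1*, 0 of 7, became 1 (*Ftl1*) with the replicate block and 2 with the replicate block and GC correction, and was 0 to 1 with single libraries left out (*Ftl1*, without control replicate 3). For the 58 list genes the 0 calls became 2 with the block (*Ftl1*, *Fdx1l*), 3 with block and GC correction (also *Tfrc*) and, with replicates 2 and 3 only, 1 (*Urod*), and 0 to 1 with single libraries left out. Over all genes the 73 calls became 169 with the replicate block, 246 with block and GC correction, 135 with GC correction, 191 with replicates 2 and 3 only, and 40 to 144 with single libraries left out; the cause was not tested. Reversed differences were -0.021 for *Fech* with GC correction, with and without the block, and -0.043, -0.018 and -0.0092 for *Alas1* with quantile normalization, median centring and replicates 2 and 3 only. With single libraries left out, *Alas1* ran from -0.045 to 0.10, *Tfrc* from -0.090 to 1.14, *Ireb2* from -0.20 to 0.71 and *Fth1* from -0.29 to 0.051; control replicate 1 was the library whose absence reversed the last 3. Among the 7 members other than *Flvcr1*, no call changed when 0.1 was added in place of 1, when genes averaging under 1 FPKM were left out, or when eBayes ran without the trend. The replicate block alone changed no call of these 7 but that of *Ftl1*. With 3 libraries a group and unknown depth, the printed intervals are wide, and a gene that was not called is not shown to be unaffected.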

Other observations

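Ratios within a library do not depend on its scaling. The FPKM ratio of *Fth1* to *Ftl1* was 4.82, 4.55 and 7.52 in controls 1 to 3, against 9.81, 6.43 and 7.64 in treated cultures 1 to 3, so the groups overlapped at means of 5.63 ± 1.64 (SD, n = 3) and 7.96 ± 1.72 (SD, n = 3). Within replicate numbers 1, 2 and 3 this ratio was higher with C3G, which was not tested. The ratio of *Fech* to *Alas1*, the last and the rate-limiting enzyme of heme synthesis, was 18.1 ± 2.22 (SD, n = 3) in untreated and 18.4 ± 2.55 (SD, n = 3) in treated cells. That of *Tfrc* to *Ireb2*, both low in GC content, ran from 1.38 to 2.47 over the 6 libraries although *Tfrc* itself ran from 2.87 to 23.5 FPKM. The ratio of *Fth1* to *Tfrc* was 1584 in control replicate 1 and 130 to 396 in the other 5 libraries.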
